A study of Homo sapiens with 9 samples.

Results

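The expression of mitosis and G2-M genes was read from 9 Affymetrix arrays of K562, a human erythroleukaemia cell line, carrying 1 of 3 forms of calreticulin (CALR). A list of 45 genes was followed, from the cyclins and kinases that start mitosis to the proteins that end it, and 44 of them were measured among 18239 genes. Each gene was read from the probe set that the annotation gave to exactly 1 gene symbol and that had the highest mean over the 9 arrays. PTTG1, which encodes the separase inhibitor securin, lay only on probe sets that the annotation also gave to other genes, and it was not analysed here.

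The groups were Del52 (CALR with the Del52 mutation), Ins5 (CALR with the Ins5 mutation) and WT (wild-type CALR), with 3 arrays each. Del52 and Ins5 are the deletion and the insertion of CALR known from myeloproliferative neoplasms, and both change the end of this chaperone of the endoplasmic reticulum. All 3 groups shared the same handling: 4 rounds of retroviral infection at 12 h intervals, 36 h of further culture, magnetic selection for the surface marker NGFR, and RNA from 100000 cells, with a purity above 90% at 48 h. The construct came on top of the CALR genes of K562 itself, no untransduced cells were analysed here, and nothing in the labels says that the replicates came from separate cultures, so that p-values measure the spread between these samples, which may be technical.

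Entry into mitosis is driven by the kinase CDK1 bound to cyclin A or cyclin B, which WEE1-type kinases hold back and CDC25 phosphatases release. PLK1 and the Aurora kinases then build the spindle, kinesins move chromosomes along it, and kinetochores on each centromere catch its microtubules. The spindle assembly checkpoint holds CDC20 and the anaphase-promoting complex until every kinetochore is attached. Most of these genes are transcribed late in the cell cycle. In dividing human cells the DREAM complex in its repressing form and the activators MYBL2 and FOXM1 act on many of their promoters. They do so at the cell cycle genes homology region (CHR), and many of these promoters also hold CCAAT boxes.

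Promoters are shown for 5 genes that lay on opposite sides of the main spread between arrays: CENPA and CDC25B with high values at 1 end of it, and CDK1, PRC1 and CDC25C with high values at the other. All 5 were picked by their r with that spread from genes whose listed promoter held a CHR, and CDK1, PRC1 and CDC25C were added after their values were seen. CCNB1, NDC80 and CCNA2, described further on with an r of similar or greater size, had no CHR in the promoter listed and are not shown. The sequences are the 250 bases before the start from RefSeq (GRCh38.p14), 5′ to 3′ on the gene's own strand. Capitals mark the CHR letters TTTGAA or TTCGAA and the CCAAT box CCAAT, each searched on both strands (as TTCAAA and ATTGG on the other strand, while TTCGAA reads the same on both); the motifs may share bases.
CENPA, chr2:26785806-26786055, plus strand: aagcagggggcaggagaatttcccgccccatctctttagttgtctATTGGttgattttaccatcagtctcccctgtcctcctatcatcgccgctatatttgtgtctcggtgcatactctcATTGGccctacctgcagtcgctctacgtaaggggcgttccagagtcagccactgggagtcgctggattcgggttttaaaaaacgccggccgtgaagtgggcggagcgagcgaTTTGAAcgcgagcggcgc
CDC25B, chr20:3796060-3796309, plus strand: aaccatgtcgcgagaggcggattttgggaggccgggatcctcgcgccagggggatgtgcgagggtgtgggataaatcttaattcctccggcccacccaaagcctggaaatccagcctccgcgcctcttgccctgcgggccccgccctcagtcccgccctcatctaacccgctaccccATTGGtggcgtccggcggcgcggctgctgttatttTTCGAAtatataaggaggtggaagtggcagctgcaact
CDK1, chr10:60778081-60778330, plus strand: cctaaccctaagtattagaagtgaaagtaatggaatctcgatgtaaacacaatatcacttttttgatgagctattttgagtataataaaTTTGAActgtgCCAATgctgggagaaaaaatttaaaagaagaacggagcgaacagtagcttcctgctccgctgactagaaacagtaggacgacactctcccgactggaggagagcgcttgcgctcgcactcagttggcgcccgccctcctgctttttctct
PRC1, chr15:90994536-90994785, minus strand: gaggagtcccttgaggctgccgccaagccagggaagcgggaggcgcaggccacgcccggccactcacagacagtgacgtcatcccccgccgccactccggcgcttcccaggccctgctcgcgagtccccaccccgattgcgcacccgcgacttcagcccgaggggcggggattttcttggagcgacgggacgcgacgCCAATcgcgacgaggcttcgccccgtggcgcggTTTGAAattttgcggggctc
CDC25C, chr5:138331805-138332054, minus strand: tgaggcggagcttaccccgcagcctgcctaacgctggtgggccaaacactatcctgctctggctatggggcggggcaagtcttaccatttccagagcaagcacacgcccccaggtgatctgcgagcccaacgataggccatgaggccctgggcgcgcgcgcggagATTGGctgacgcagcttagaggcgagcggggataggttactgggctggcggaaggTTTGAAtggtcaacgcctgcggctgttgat

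The CHR letters began at position -18 of CENPA, -38 of CDC25B, -161 of CDK1, -20 of PRC1 and -30 of CDC25C, counted from the start. CDC25B had 4 listed starts and CDC25C also 4, of which 1 each held the letters, and both starts of CDK1 held them, the first listed being shown. Promoters were found for 38 of the 44 genes (47 starts), and none for AURKA, BIRC5, BUB3, TTK, UBE2C and TPX2. A CHR stood in 25 of the 47 promoters (53.2%), against 14.3% of all 35116 promoters of that length, and a CCAAT box in 35 (74.5%), against 32.0%. Both motifs stood together in 21 (44.7%), against 5.05%. The CHR was found in 2 of 7 promoters (28.6%) of the genes with values toward the CENPA end. It stood in 5 of 13 (38.5%) of those toward the CDK1 end, and in 18 of 27 (66.7%) of the remaining genes. CDC25B gave 4 of the 7 promoters and CDC25C 4 of the 13. Counted by gene, with a CHR in at least 1 listed promoter, these were 2 of 4, 4 of 9 and 17 of 25 genes. The order of the ends was then reversed, and with so few genes no difference between them is read from these counts. A match describes these letters only.

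The values are the authors' RMA values on the log2 scale, so that 1 unit is a 2-fold difference and levels of different genes are not compared. CALR itself read 7.61, 7.25 and 7.40 in Del52, 7.48, 7.47 and 7.26 in Ins5, and 7.29, 7.67 and 7.73 in WT, and its probe set did not pass the test against WT in Del52 (log2 fold change -0.15, limma adjusted p = 0.918) or Ins5 (-0.16, adjusted p = 0.893). It measures K562's own CALR as well and therefore does not check the labels. Of 9 K562 markers, 7 were measured, and 6 (HBG1, HBE1, TFRC, ALAS2, GATA1 and KLF1) lay above the mean of every one of the 23 antigenomic controls, whose highest was 6.35. Among markers of other cells, 0 of 4 lymphocyte genes, 1 of 6 granulocyte and monocyte genes (LYZ, 9.65) and 1 of 6 fibroblast and epithelial genes (EPCAM, 8.54) did so. Of the mitosis genes 39 of 44 lay above 6.35. UBE2C, KIF15, INCENP, KIF18A and KIF20B lay within the span of these controls, whose means had a median of 2.01. In such bulk samples, fewer dividing cells and less RNA per dividing cell cannot be told apart.

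None of the 44 genes passed the test in any comparison of the constructs. The largest differences were lower values of the kinesins KIF14, KIF20B and KIF18A in both mutants, none beyond the spread between arrays. KIF20B and KIF18A lay within the span of the antigenomic controls. All of these differences shrank without WT replicate 1, and they grew without WT replicate 3 (KIF14 and KIF18A) or WT replicate 2 (KIF20B). In Del52 against WT, 0 of 44 genes passed at a limma adjusted p under 0.05, and 0.0% of all 18239 genes did. Of the 44, 23 had a log2 fold change above 0 and 21 below 0, where 54.6% of all genes were above 0. Their median was 0.01, against 0.01 over all genes, and it was -0.01 after centring each array on its median. The range ran from -0.40 for KIF14 to 0.15 for BUB1. No gene had an unadjusted p under 0.05, against 7.05% of all genes, while 5 had one without WT replicate 2 (9.17% of all genes) and 5 without WT replicate 3 (7.33%). None had groups that did not overlap, against 6.23% of all genes higher and 4.36% lower.

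In Ins5 against WT, which uses the same WT arrays, 0 of 44 genes passed and again 0.0% of all genes. More of the genes lay below 0 (30) than above it (14), where 59.6% of all genes lay above 0, and their median was -0.04, against 0.02 over all genes. The range ran from -0.43 for KIF20B to 0.16 for PLK1. TOP2A alone had an unadjusted p under 0.05 (7.41% of all genes did), and the count was 0 without WT replicate 1 (5.49% of all genes), 6 without WT replicate 2 (8.78%) and 9 without WT replicate 3 (7.45%). CCNB2 alone was higher in every Ins5 array than in every WT array (8.16% of all genes). TOP2A alone was lower (3.3%), though on its brightest probe set only. In the mean of both mutants against WT, 0 passed (0.0% of all genes), 16 lay above 0 (57.9% of all genes did) and 28 below, with a median of -0.02 against 0.02. Only KIF18A had an unadjusted p under 0.05 there, against 7.97% of all genes, and the count was 0 without WT replicate 1 (5.65% of all genes), 6 without WT replicate 2 (10.0%) and 9 without WT replicate 3 (7.94%).

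Del52 set directly against Ins5 gave 29 genes above 0 and 15 below, where 45.4% of all genes lay above 0. The median was 0.03, against -0.01 over all genes, and the values ran from -0.14 for CDC25C to 0.23 for ANLN. Of the 44 genes 0 passed (0.0% of all genes), 0 had an unadjusted p under 0.05 (5.77% of all genes) and 0 had groups that did not overlap (3.81% higher and 6.28% lower). The F test over the 3 groups called 0 of 44 and 0.0% of all genes, with a smallest adjusted p of 0.76, and 0 had an unadjusted p under 0.05 (7.23% of all genes). The typical standard error of a gene's log2 fold change was 0.11. Leaving out 1 array turned the sign or moved the log2 fold change by over 1.5 times in 44 of 44 genes for Del52 against WT, 42 for Ins5 against WT and 43 for Del52 against Ins5, with no adjusted p under 0.493 in any comparison. Without WT replicate 2, only 13 genes lay above 0 in Del52 against WT (median -0.06), and without Ins5 replicate 1, 20 lay above 0 in Del52 against Ins5 (median -0.03).

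**Figure D1:**
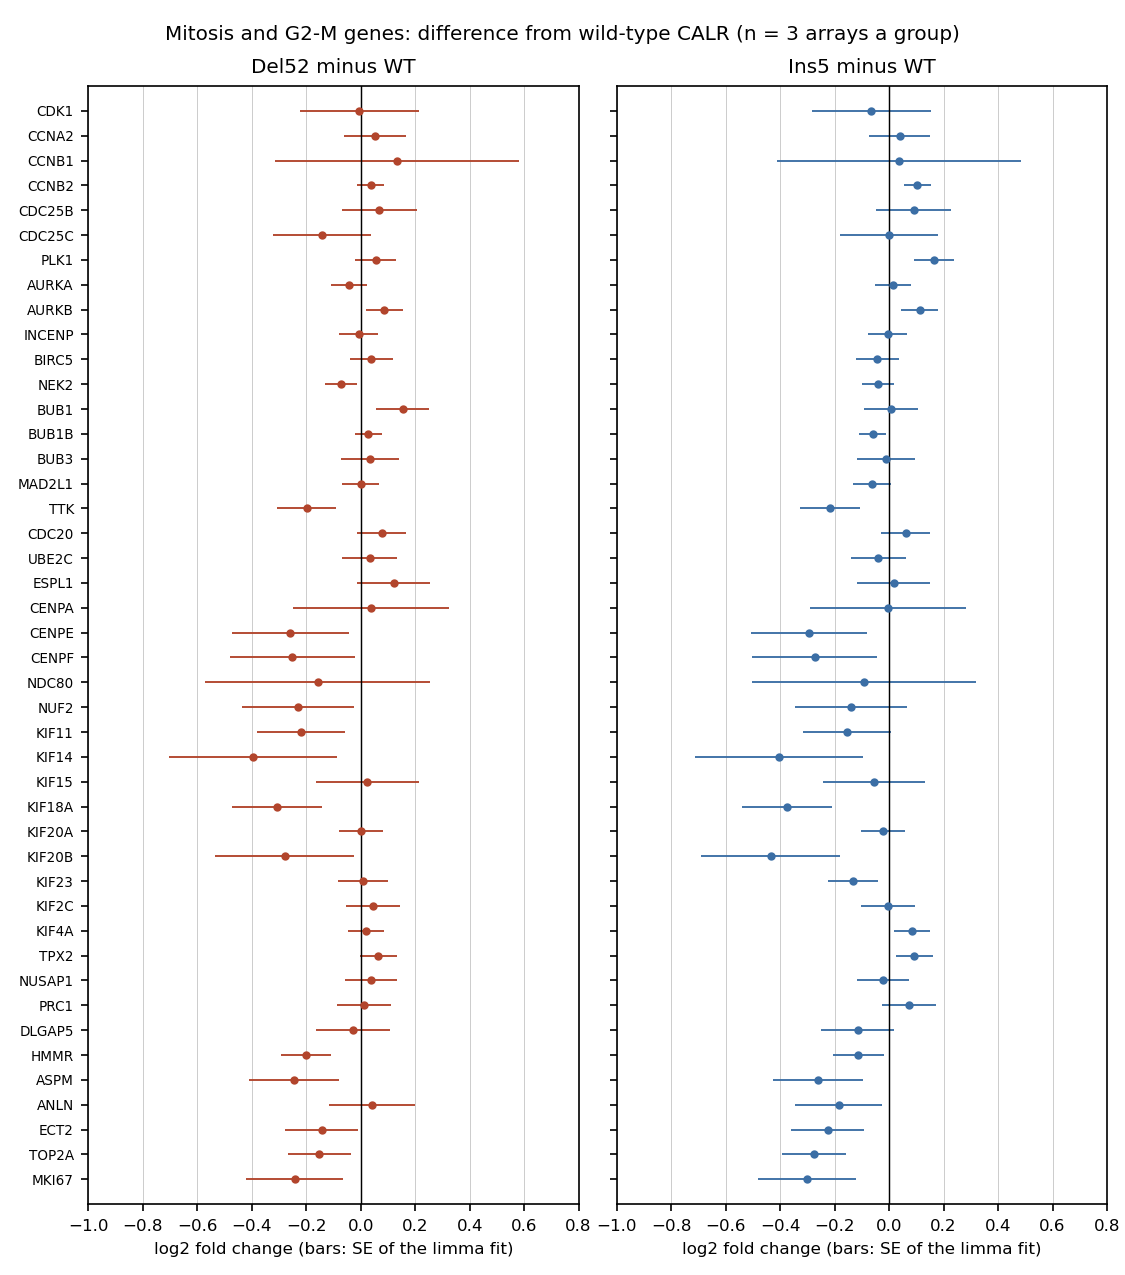
Log2 fold change of each of the 44 genes (rows) in Del52 minus WT (left) and Ins5 minus WT (right), with bars for the standard error of the limma fit (n = 3 arrays a group). The values farthest from 0 are those of KIF14 (-0.40 in both mutants) and KIF20B (-0.43 in Ins5).

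The cyclin-dependent kinase group (CDK1, CCNA2, CCNB1, CCNB2, CDC25B and CDC25C) held 4 of 6 genes above 0 in Del52 and 5 of 6 in Ins5, and 4 of 6 in Ins5 once arrays were centred on their medians. CCNB2, which encodes cyclin B2, read 8.43, 8.56 and 8.54 in Del52, 8.62, 8.54 and 8.58 in Ins5, and 8.52, 8.47 and 8.44 in WT. The Ins5 arrays lay above all WT arrays, whereas Del52 overlapped both, with a log2 fold change of 0.10 ± 0.05 SE for Ins5 (adjusted p = 0.709) and 0.04 ± 0.05 SE for Del52 (adjusted p = 0.97). CCNB1, the cyclin B1 partner of CDK1, read 8.45, 7.69 and 8.67 in Del52, 8.06, 7.85 and 8.60 in Ins5, and 8.07, 9.04 and 7.30 in WT. Its WT arrays held both the highest and the lowest value of all 9, and the mutants lay between them (0.13 ± 0.45 SE for Del52 and 0.04 ± 0.45 SE for Ins5). CDK1 read 9.45, 9.67 and 9.26 in Del52, 9.36, 9.64 and 9.21 in Ins5, and 9.52, 9.02 and 9.86 in WT. Here too WT replicates 2 and 3 were the extremes, but in the opposite order to CCNB1. CCNA2, which encodes cyclin A2, had the same order as CDK1 within a narrower range, at 8.74, 8.87 and 8.66 in Del52, 8.73, 8.86 and 8.64 in Ins5, and 8.74, 8.48 and 8.90 in WT.

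Among the mitotic kinases and the chromosomal passenger complex, 3 of 6 genes lay above 0 in Del52 and 3 of 6 in Ins5. PLK1, the kinase of spindle poles and mitotic entry, read 7.59, 7.52 and 7.54 in Del52, 7.66, 7.56 and 7.76 in Ins5, and 7.45, 7.63 and 7.41 in WT. It was highest in Ins5 replicates 1 and 3, and Ins5 overlapped WT through WT replicate 2. Its log2 fold change was 0.16 ± 0.07 SE in Ins5 (adjusted p = 0.682), 0.05 ± 0.07 SE in Del52 (adjusted p = 0.972) and -0.11 ± 0.07 SE in Del52 against Ins5 (adjusted p = 0.988). On its second probe set, the value for Del52 against Ins5 was 0.07, of the opposite sign. AURKA, the kinase of spindle poles, read 8.50, 8.35 and 8.41 in Del52, 8.45, 8.43 and 8.54 in Ins5, and 8.40, 8.58 and 8.41 in WT, and NEK2, a kinase of centrosome separation, read 8.22, 8.28 and 8.32 in Del52, 8.25, 8.32 and 8.34 in Ins5, and 8.45, 8.32 and 8.26 in WT. Both belonged to the 4 genes with the smallest spread over the 9 arrays (SD 0.07 and 0.07). Their groups overlapped on the brightest probe set. For NEK2 this depended on the probe set. On a dimmer one (mean 6.61), every mutant array (6.41 to 6.64) lay below every WT array (6.68 to 6.80). The log2 fold changes there were -0.14 in Del52 and -0.22 in Ins5, against -0.07 and -0.04 on the brightest. Del52 alone lay wholly below WT on that of mean 8.16, and Ins5 alone on that of mean 6.55. On those of mean 6.84 and 6.62, both mutants overlapped WT. That of mean 6.61 was not tested alone. AURKB, INCENP and BIRC5, partners in the passenger complex, had log2 fold changes between -0.04 and 0.11 in the mutants.

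Of the checkpoint genes, 3 of 5 lay above 0 in Del52 (4 of 5 after quantile normalization) and 1 of 5 in Ins5 (2 of 5 after it). TTK, the kinase MPS1 that starts the checkpoint signal, read 7.22, 7.31 and 7.44 in Del52, 7.20, 7.35 and 7.37 in Ins5, and 7.74, 7.50 and 7.34 in WT. Ins5 replicate 1 was the lowest array and WT replicate 1 the highest, and both mutant groups overlapped WT. The log2 fold changes were -0.20 ± 0.11 SE in Del52 (adjusted p = 0.785) and -0.22 ± 0.11 SE in Ins5 (adjusted p = 0.719). They were -0.09 and -0.11 without WT replicate 1, and -0.29 and -0.31 without WT replicate 3. BUB1, a checkpoint kinase at the kinetochore, read 8.05, 7.85 and 8.04 in Del52, 7.71, 7.85 and 7.94 in Ins5, and 7.88, 7.94 and 7.65 in WT. Del52 replicates 1 and 3 were its highest arrays, with 0.15 ± 0.10 SE in Del52 against WT (adjusted p = 0.837) and 0.15 ± 0.10 SE against Ins5 (adjusted p = 0.983). The value against WT was 0.07 without WT replicate 3, and that against Ins5 was 0.08 without Ins5 replicate 1. BUB1B, which encodes the checkpoint protein BUBR1, had the smallest spread of all 44 genes, with 8.34, 8.32 and 8.23 in Del52, 8.17, 8.24 and 8.22 in Ins5, and 8.27, 8.21 and 8.33 in WT. The whole range was 1.12-fold, and its 0.09 ± 0.05 SE in Del52 against Ins5 had the smallest p of that comparison (limma adjusted p = 0.952). BUB3, its partner, read 9.31, 9.17 and 9.37 in Del52, 9.21, 9.15 and 9.35 in Ins5, and 9.25, 9.45 and 9.05 in WT, with WT replicates 2 and 3 as the extremes.

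The genes of anaphase onset were CDC20, the activator of the anaphase-promoting complex, UBE2C, its ubiquitin-conjugating enzyme, and ESPL1, the protease separase. All 3 lay above 0 in Del52 and 2 of 3 in Ins5, 1 of 3 after median centring. ESPL1 read 6.70, 6.58 and 6.47 in Del52, 6.43, 6.67 and 6.33 in Ins5, and 6.40, 6.26 and 6.73 in WT. The lowest and highest arrays were WT replicates 2 and 3, and the log2 fold changes were 0.12 ± 0.14 SE in Del52 (adjusted p = 0.944) and 0.02 ± 0.14 SE in Ins5 (adjusted p = 1.00). They were 0.02 and -0.08 without WT replicate 2, and 0.25 and 0.15 without WT replicate 3.

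Centromere and kinetochore genes lay mostly below 0: 1 of 5 was above it in Del52 (median -0.23) and 0 of 5 in Ins5 (median -0.14, 1 of 5 after quantile normalization). CENPE, a kinesin that carries chromosomes to the spindle equator, read 6.31, 6.62 and 6.36 in Del52, 6.13, 6.63 and 6.43 in Ins5, and 7.08, 6.26 and 6.73 in WT. WT replicate 1 was the highest array, and both mutants overlapped the other WT arrays (-0.26 ± 0.21 SE in Del52, adjusted p = 0.9, and -0.29 ± 0.21 SE in Ins5, adjusted p = 0.847). The values were -0.06 and -0.10 without WT replicate 1, and -0.47 and -0.51 without WT replicate 2. NDC80, whose product grips microtubules, read 7.78, 8.35 and 7.61 in Del52, 8.04, 8.38 and 7.52 in Ins5, and 8.15, 7.23 and 8.83 in WT, and CENPA, the histone that marks centromeres, read 7.96, 7.64 and 8.27 in Del52, 7.92, 7.67 and 8.16 in Ins5, and 7.92, 8.48 and 7.36 in WT. WT replicates 2 and 3 were the extremes of both, in opposite order. Without WT replicate 1 the median of the 5 genes was -0.06 in Del52 and -0.06 in Ins5, and without WT replicate 2 it was -0.46 and -0.37.

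Of the 9 kinesins, 5 lay above 0 in Del52 (3 after median centring) and 1 in Ins5 (2 after quantile normalization), with a median of -0.13 in Ins5. Without WT replicate 2, 1 of 9 lay above 0 in Del52, and the median in Ins5 was -0.06 without Ins5 replicate 1 or without WT replicate 1. KIF18A, which dampens chromosome movement at the spindle equator, read 6.18, 6.03 and 6.17 in Del52, 5.76, 6.13 and 6.29 in Ins5, and 6.68, 6.47 and 6.16 in WT. The lowest array was Ins5 replicate 1 and the highest were WT replicates 1 and 2, and WT replicate 3 lay among the mutants. Its log2 fold changes were -0.31 ± 0.17 SE in Del52 (adjusted p = 0.774), -0.37 ± 0.17 SE in Ins5 (adjusted p = 0.679) and -0.34 ± 0.14 SE in the mean of both mutants (adjusted p = 0.609), and -0.18, -0.25 and -0.22 without WT replicate 1. Without WT replicate 3 they were -0.45, -0.51 and -0.48. KIF14, a kinesin of cytokinesis, read 6.42, 6.46 and 6.75 in Del52, 6.06, 6.64 and 6.89 in Ins5, and 7.53, 6.91 and 6.37 in WT, a 2.76-fold range. Its log2 fold changes were -0.40 ± 0.31 SE in Del52 and -0.40 ± 0.31 SE in Ins5. They were -0.10 and -0.11 without WT replicate 1, and -0.68 and -0.69 without WT replicate 3.

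KIF20B, another kinesin of cytokinesis, read 5.87, 6.41 and 5.97 in Del52, 5.82, 6.17 and 5.79 in Ins5, and 6.68, 5.79 and 6.61 in WT. WT replicates 1 and 3 were its highest arrays and WT replicate 2 its lowest, so that both mutants lay inside the WT range (-0.28 ± 0.26 SE in Del52 and -0.43 ± 0.26 SE in Ins5). The values were -0.12 and -0.27 without WT replicate 1, and -0.56 and -0.72 without WT replicate 2. KIF23, which bundles midzone microtubules, read 7.15, 7.16 and 6.94 in Del52, 6.79, 6.97 and 7.06 in Ins5, and 7.16, 6.97 and 7.09 in WT. Ins5 replicate 1 was its lowest array, and Del52 and Ins5 overlapped through Del52 replicate 3 (0.14 ± 0.09 SE in Del52 against Ins5, adjusted p = 0.979). The value was 0.07 without Ins5 replicate 1.

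Spindle organisers were split, with 3 of 6 above 0 in Del52 and 2 of 6 in Ins5. HMMR, a spindle and hyaluronan-binding protein, read 9.31, 9.53 and 9.43 in Del52, 9.45, 9.57 and 9.51 in Ins5, and 9.79, 9.46 and 9.62 in WT, and had the smallest p in Del52 against WT. Del52 replicate 1 was its lowest array and WT replicate 1 its highest, with -0.20 ± 0.09 SE in Del52 (adjusted p = 0.735) and -0.11 ± 0.09 SE in Ins5 (adjusted p = 0.881). Without WT replicate 1 the value for Del52 was -0.11, and without WT replicate 2 it was -0.28.

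Both cytokinesis genes lay below 0 in Ins5 (ANLN, the anillin scaffold of the cleavage furrow, -0.19 ± 0.16 SE, and ECT2, the activator of RhoA there, -0.23 ± 0.13 SE) and 1 of 2 in Del52. ANLN in Ins5 was -0.04 without Ins5 replicate 1 and -0.31 without WT replicate 2. ECT2 read 6.92, 7.05 and 7.03 in Del52, 6.74, 6.90 and 7.11 in Ins5, and 7.40, 7.11 and 6.92 in WT. Ins5 replicate 1 was its lowest array and WT replicate 1 its highest. Its values were -0.02 in Del52 and -0.10 in Ins5 without WT replicate 1, and -0.25 and -0.34 without WT replicate 3. TOP2A, the topoisomerase that untangles chromosomes, read 8.92, 8.89 and 8.99 in Del52, 8.60, 8.95 and 8.88 in Ins5, and 9.31, 8.99 and 8.97 in WT. All Ins5 arrays lay below all WT arrays, the nearest being Ins5 replicate 2 at 8.95 and WT replicate 3 at 8.97, while Del52 overlapped both. The log2 fold change was -0.28 ± 0.12 SE in Ins5 (unadjusted p = 0.0465, adjusted p = 0.665) and -0.15 ± 0.12 SE in Del52 (adjusted p = 0.884), and -0.17 in Ins5 without WT replicate 1. MKI67, the proliferation marker Ki-67, had -0.24 ± 0.18 SE in Del52 and -0.30 ± 0.18 SE in Ins5. Its probe sets disagreed: the 5 others gave 0.28 to 0.43 in Del52, all of the opposite sign, and -0.21 to 0.29 in Ins5, with 4 of 5 above 0, so that no direction is given for it.

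**Figure D2:**
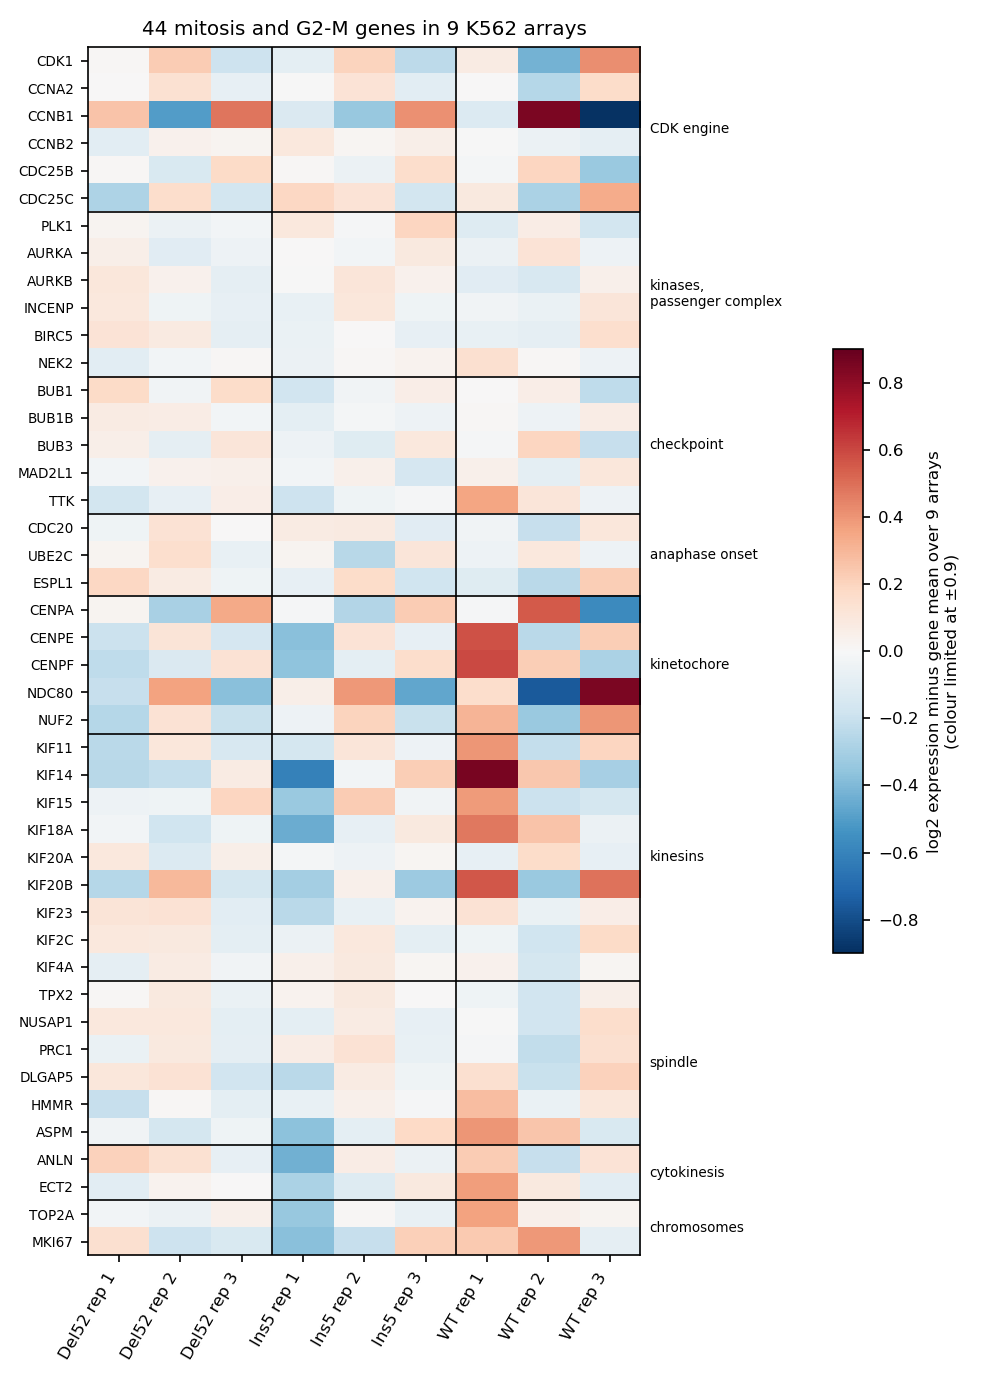
Log2 value of each of the 44 genes (rows, by role) in each array (columns, Del52, Ins5 and WT replicates 1 to 3) minus the gene's mean over the 9 arrays. CCNB1 and CENPA are high in WT replicate 2 and low in WT replicate 3, NDC80 and CDK1 show the opposite order, and a block of kinesins and kinetochore genes is high in WT replicate 1.

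The genes varied more from array to array than between constructs. Their SD over the 9 arrays had a median of 0.15, against 0.10 over all genes, and 33 of 44 lay above the median of all genes and 18 above its upper quartile of 0.17. This comparison was not matched for signal. Of the 44 genes 39 lay above every antigenomic mean, whereas array medians over all probe sets lay between 3.73 and 3.76. The range over arrays ran from 1.12-fold for BUB1B to 3.33-fold for CCNB1, with NDC80, KIF14 and KIF20B next in spread after CCNB1. The construct accounted for a median of 17.2% of a gene's variance, against 21.3% over all genes, and at most for 49.2% (CCNB2).

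The main spread between arrays was summarised by the first principal component of all other genes, which held 70.5% of their variance (10.0% in the second). The arrays' scores on it were 0.11, -0.30 and 0.27 in Del52, -0.06, -0.27 and 0.30 in Ins5, and -0.05, 0.57 and -0.57 in WT for replicates 1, 2 and 3. WT replicates 2 and 3 thus stood at opposite ends, and the labels name nothing that separates them. Of the 44 genes, 15 correlated with this axis at an adjusted p under 0.05 in the exact permutation test over all orders of the arrays, which is 34.1%, near the 31.0% of all genes that did. The signs differed: 5 genes (11.4%, against 16.5% of all genes) rose and 10 (22.7%, against 14.5%) fell toward WT replicate 2, and the median r was -0.42, against 0.13 over all genes.

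The 5 genes that rose toward WT replicate 2 were CCNB1, BUB3, CENPA, CDC25B, the phosphatase that switches on CDK1, and KIF20A, a kinesin of cytokinesis. CCNB1 had r = 0.99 and rho = 0.98 (exact permutation p = 8.27e-06 and 4.96e-05, r adjusted over all genes p = 0.000576). For BUB3, r was 0.99 and rho 0.97 (exact permutation p = 1.93e-05 and 0.000165, adjusted p = 0.000701 for r). For CENPA, r was 0.99 and rho 0.98 (exact permutation p = 3.86e-05 and 6.61e-05, adjusted p = 0.000834 for r). WT replicate 2 exceeded WT replicate 3 by 1.73 for CCNB1, 1.12 for CENPA, 0.52 for CDC25B, 0.40 for BUB3 and 0.24 for KIF20A on the log2 scale.

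The 10 genes that fell toward WT replicate 2 came from several roles: CDK1, CCNA2 and CDC25C of the kinase engine, CDC20, the kinetochore genes NDC80 and NUF2, the microtubule depolymerase KIF2C, and the spindle genes TPX2, NUSAP1 and PRC1. NDC80 had r = -0.99 and rho = -0.97 (exact permutation p = 1.1e-05 and 0.000165, adjusted p = 0.0006 for r). For CDK1, r was -0.98 and rho -0.95 (exact permutation p = 6.89e-05 and 0.000353, adjusted p = 0.00105 for r). For CCNA2, r was -0.97 and rho -0.95 (exact permutation p = 7.72e-05 and 0.000353, adjusted p = 0.00112 for r). The difference WT replicate 2 minus WT replicate 3 was -1.60 for NDC80, -0.85 for CDK1 and -0.42 for CCNA2, and between -0.73 and -0.23 for the other 7. CDK1 and the cyclin B1 that binds it ran in opposite directions over the same arrays, whereas CCNB2 had r = 0.03 with the axis (exact permutation p = 0.931).

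**Figure D3:**
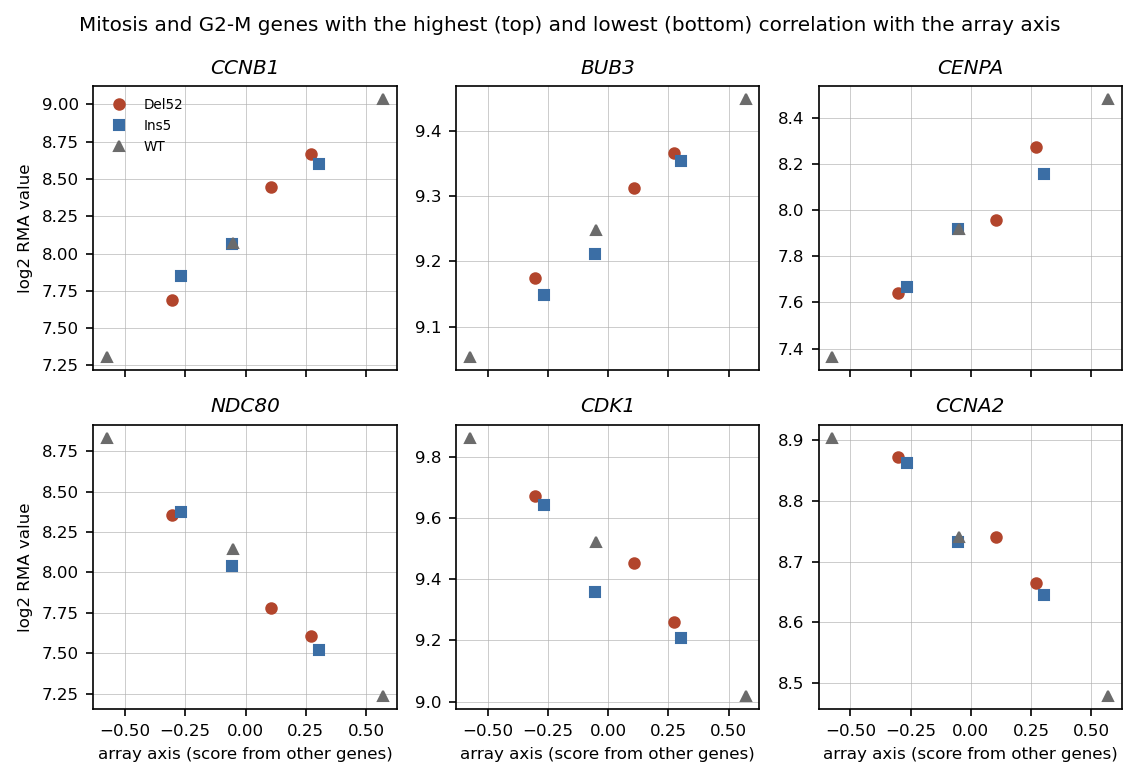
Log2 value (vertical) against the score of each array on the first principal component of all other genes (horizontal) for CCNB1, BUB3 and CENPA (top) and NDC80, CDK1 and CCNA2 (bottom). Each point is 1 array, and WT replicate 2 (score 0.57) and WT replicate 3 (-0.57) are the end points in all 6 panels with the mutant arrays between them.

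Without WT replicates 2 and 3, the arrays farthest from the median of the axis, r was 0.99 for CCNB1, 0.98 for BUB3, 0.97 for CENPA, -0.99 for NDC80, -0.93 for CDK1 and -0.96 for CCNA2. The axis was not computed again for this: the scores were those from all 9 arrays, which WT replicates 2 and 3 helped to set. All 15 genes kept the sign of r. An unadjusted exact permutation p under 0.05 was found in 12 of the 44 genes and in 3885 of all 18239. With adjustment over all genes, 4 of the 44 passed and 799 of all 18239. Within groups, from each array's deviation from its group mean, all 15 kept the sign. There 10 of the 44 genes passed, and 3612 of all 18239. The r was 0.996 for CCNB1 and -0.998 for NDC80, both with an exact permutation p of 0.00463, the smallest that permutation within groups can give. The 3′ minus 5′ signal of the actin control probe sets, a sign of RNA integrity, moved along the same axis (r = -0.74 over the 9 arrays): it was 1.18, 1.33 and 1.24 in Del52, 1.22, 1.38 and 1.24 in Ins5, and 1.39, 1.08 and 1.31 in WT. The same signal of GAPDH was 0.03 in WT replicate 2 and between 0.08 and 0.17 elsewhere. Their part in the pattern was not tested.

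A further pattern was seen in the first arrays of Ins5 and WT. In 14 of 44 genes (31.8%, against 6.54% of all genes) Ins5 replicate 1 had the lowest value, and in 15 (34.1%, against 6.44%) WT replicate 1 had the highest. Both held for 11 genes, which is 25.0% of the 44 and 2.54% of all genes: TTK, CENPE, CENPF, KIF14, KIF15, KIF18A, KIF23, ASPM, ANLN, ECT2 and TOP2A. CENPF is a kinetochore protein, KIF15 a kinesin of the bipolar spindle and ASPM a spindle pole protein. Ins5 replicate 1 lay below WT replicate 1 by 0.37 (KIF23) to 1.46 (KIF14) in them. None of the 11 passed on the main axis. WT replicate 1 and Ins5 replicate 1 had nearly the same score on it (-0.05 and -0.06). This leaves little room for a high r in genes picked by these arrays, and no conclusion is drawn from it. This count was chosen after the values were seen and is a description of these arrays, with no test.

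**Figure D4:**
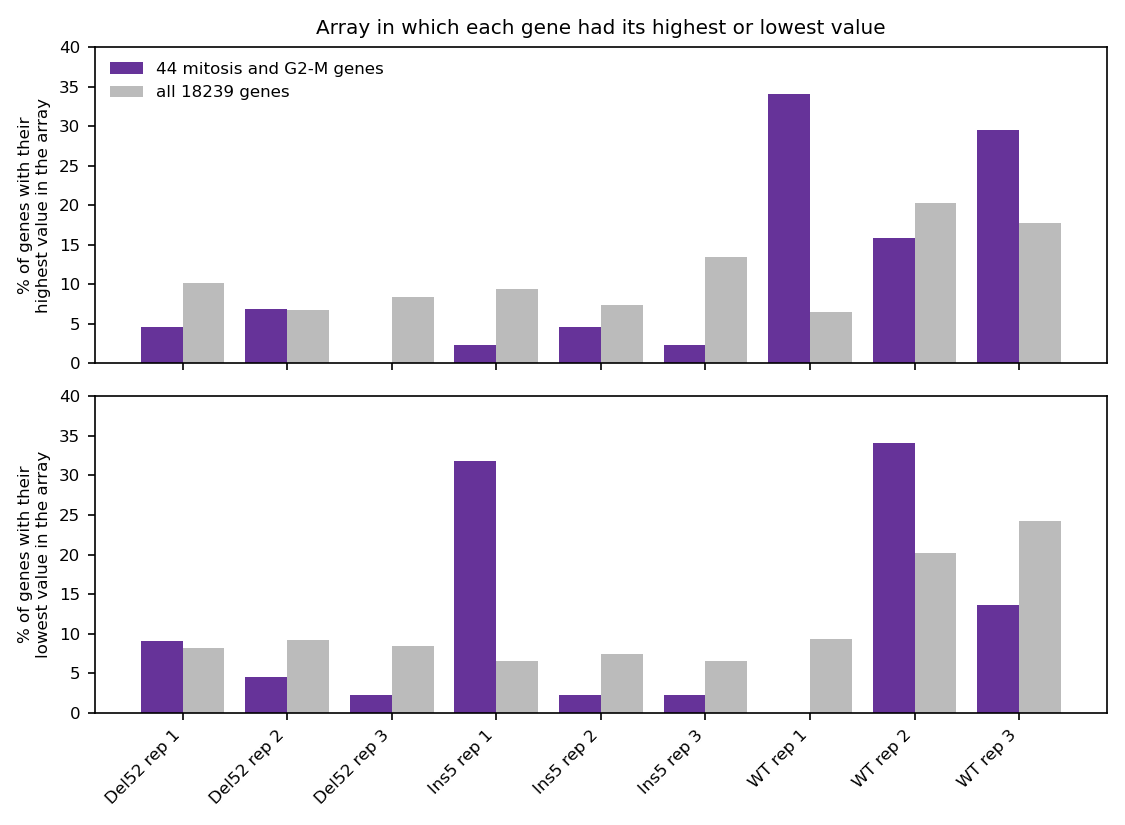
Share of genes (vertical, percent) that had their highest value (top) or their lowest value (bottom) in each array, for the 44 mitosis and G2-M genes and for all 18239 genes. Ins5 replicate 1 was the lowest array for 31.8% of the 44 genes and 6.54% of all genes, and WT replicate 1 the highest for 34.1% and 6.44%.

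The annotation listed 113 probe sets for the 44 genes, and 29 genes had more than 1. In 20 of these the second brightest probe set also lay above every antigenomic mean, and in 17 of the 20 its r with the axis had the same sign. The exceptions were MKI67 (0.60 on the first probe set and -0.75 on the second), CENPF (0.47 and -0.13) and NEK2 (0.20 and -0.43), so that no direction along the arrays is given for them. All 10 of the axis genes that had a second probe set kept their sign on it. Of the 11 genes lowest in Ins5 replicate 1 and highest in WT replicate 1, 7 had a second probe set, and in all 7 Ins5 replicate 1 lay below WT replicate 1, by 0.39 to 1.53. The log2 fold change had the same sign on both probe sets in 22 of 29 genes for Del52 against WT and in 23 of 29 for Ins5 against WT.

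**Figure D5:**
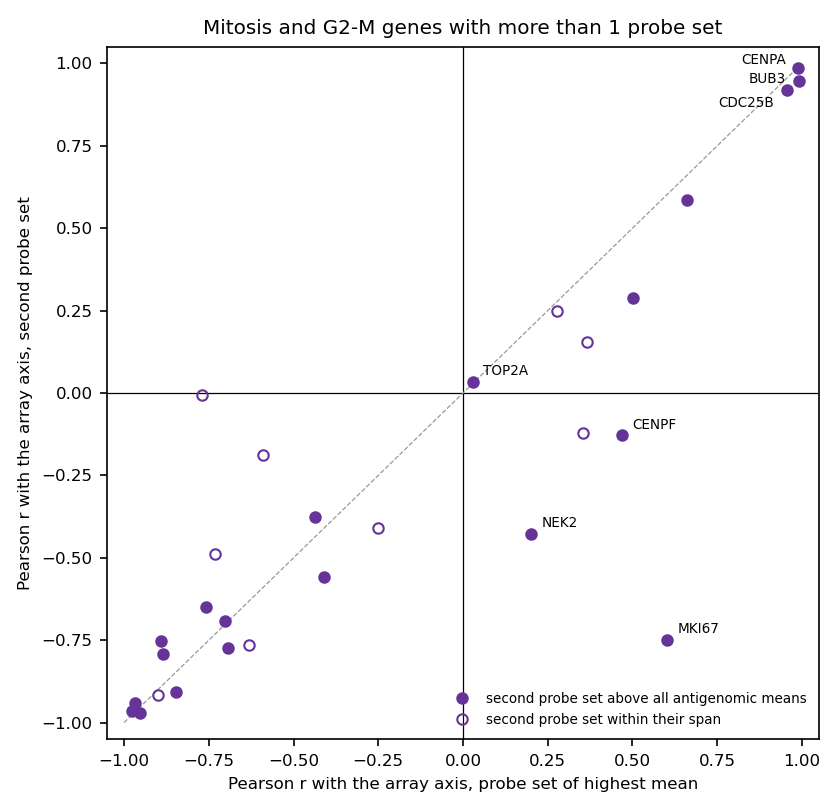
Pearson r with the array axis on the second brightest probe set (vertical) against r on the brightest (horizontal) for the 29 genes with several probe sets, 1 point a gene, filled where the second probe set lay above all antigenomic means. Points on the dashed line have equal r on both, and MKI67 (0.60 and -0.75), CENPF and NEK2 lie far from it with opposite signs.

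Genes that act around these 44 were followed as lists from general knowledge, and none of their genes passed in any comparison of the constructs (0.0% of all genes). For the counts of each list, 54.6% of all genes lay above 0 in Del52 (median 0.01) and 59.6% in Ins5 (median 0.02). The S phase list (29 of 30 measured), which covers replication origins, polymerases and nucleotide supply, had 25 of 29 genes above 0 in Del52 (median 0.08) and 17 of 29 in Ins5 (median 0.02). GINS1, a subunit of the replicative helicase, had the smallest p of the list in Del52 (log2 fold change 0.21 ± 0.07 SE, adjusted p = 0.631). MCM3, another helicase subunit, had it in Ins5 (0.10 ± 0.05 SE, adjusted p = 0.738). Cohesin and condensin, the rings that hold and fold chromosomes, had 6 of 20 genes above 0 in Del52 (median -0.10) and 6 of 20 in Ins5 (median -0.10). WAPL, which releases cohesin, lay between 7.01 and 7.10 in Del52, between 6.93 and 7.05 in Ins5, and between 7.15 and 7.22 in WT. All 6 mutant arrays lay below all WT arrays, as in 1.26% of all genes (-0.15 ± 0.05 SE, adjusted p = 0.631 in Del52 and -0.20 ± 0.05 SE, adjusted p = 0.466 in Ins5).

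The further kinetochore list (32 measured) had 15 of 32 genes above 0 in Del52 and 14 of 32 in Ins5. SPC25, a partner of NDC80 and NUF2 in the same complex, read 8.80, 8.71 and 8.73 in Del52, 8.59, 8.72 and 8.58 in Ins5, and 8.50, 8.46 and 8.57 in WT. Every Del52 and Ins5 array lay above every WT array, as in 2.76% of all genes, with 0.24 ± 0.05 SE, adjusted p = 0.603 in Del52. NDC80 and NUF2 had values of the other sign in Del52 (-0.16 ± 0.41 SE and -0.23 ± 0.21 SE), none of the 3 past the threshold, and NDC80 was 0.22 without WT replicate 3. CENPL, a centromere protein, had the smallest p of the list in Ins5 (-0.21 ± 0.09 SE, adjusted p = 0.659). Among the activators and the DREAM complex (17 measured), 6 of 17 lay above 0 in Del52 and 9 of 17 in Ins5. TFDP1, the DNA-binding partner of E2F factors, had 0.15 ± 0.07 SE, adjusted p = 0.72 in Del52, and LIN52, a subunit of the DREAM core, -0.33 ± 0.17 SE, adjusted p = 0.739 in Ins5.

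The anaphase-promoting complex (19 measured) had 13 of 19 genes above 0 in Del52 and 10 of 19 in Ins5. FZR1, its activator of late mitosis and G1, had 0.16 ± 0.05 SE, adjusted p = 0.606 in Del52, and FBXO5, its inhibitor EMI1, -0.08 ± 0.04 SE, adjusted p = 0.717 in Ins5. The brakes on G2-M entry (14 measured) had 7 of 14 above 0 in each mutant. SFN, the 14-3-3 sigma protein, had 0.11 ± 0.04 SE, adjusted p = 0.667 in Del52, and PKMYT1, an inhibitory kinase of CDK1, 0.17 ± 0.07 SE, adjusted p = 0.651 in Ins5. Among G1 cyclins and CDK inhibitors (13 of 14 measured), 5 of 13 lay above 0 in each mutant. CDKN2D, the inhibitor p19, had -0.17 ± 0.07 SE, adjusted p = 0.676 in Del52, and CDK6, a G1 kinase, had -0.19 ± 0.13 SE, adjusted p = 0.837 in Ins5. All Del52 arrays lay below all WT arrays in CDKN2D (4.36% of all genes) and above them in FZR1, SFN and GINS1 (6.23%). All Ins5 arrays lay above all WT arrays in PKMYT1 (8.16% of all genes) and below them in FBXO5 (3.3%). In Del52 against Ins5 the genes of smallest p in the 7 lists were TFDP1, CDC27, NCAPD3, SPC25, PKMYT1, MCM4 and CDKN2D, with limma adjusted p between 0.86 and 0.983. In the mean of both mutants against WT they were LIN9, FZR1, WAPL, SPC25, SFN, GINS1 and CCNG2, with adjusted p between 0.501 and 0.719.

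Along the array axis, where 31.0% of all genes passed, 7 S phase genes rose and 14 fell toward WT replicate 2 (72.4% of 29). CCNE2, which encodes cyclin E2, had the lowest r of them (-0.99, adjusted p = 0.00102) and CDT1, an origin licensing factor, the highest (0.95, adjusted p = 0.00115), both by the exact permutation test. In the further kinetochore list 4 rose and 15 fell (59.4% of 32), in the activators and DREAM list 2 rose and 8 fell (58.8% of 17), and in the anaphase-promoting complex 5 rose and 5 fell (52.6% of 19). The G1 list gave 2 and 5 (53.8% of 13), the G2-M brakes 1 and 5 (42.9% of 14), and cohesin and condensin 2 and 3 (25.0% of 20). These counts describe the arrays and had no test of their own.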

How the data were processed

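RNA was measured in 9 K562 samples, 3 each of Del52, Ins5 and WT, grouped by the labels. The deposited values are log2 expression per probe set, made by the authors with Partek and RMA (background correction, normalization between arrays, summary of probes), per the submitters' processing notes; no version, setting or scan date is stated in what was used here. Array medians lay between 3.73 and 3.76. Of 49386 probe sets, 93 were controls, and of the rest 45253 had 1 gene symbol, 1327 several and 2713 none. Only those with 1 were used, and 45172 of them matched the RefSeq gene table by gene identifier. The probe set of highest mean stood for a gene.

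All 9 arrays entered 1 limma 3.58.1 fit (R 4.3.3) with a mean per group and 6 residual degrees of freedom, p-values were two-sided and adjusted by Benjamini-Hochberg over 18239 genes, and a gene passed under 0.05. The array axis was computed without the 44 genes, and each gene's Pearson r had an exact permutation test (Python 3.11.15), adjusted over all genes. Both were tested on simulated data. Arrays have no read depth, so their number limits the precision. The genes, lists and tests were chosen with earlier results of these data known. Array values are given for CALR, the 4 genes of smallest p per comparison, the smallest F p per role, the 4 largest and 4 smallest SDs, and the 3 highest and 3 lowest r, and fold changes or names per list for the gene of smallest p. Alternatives are given at the end. All columns were used, and promoters came from RefSeq (GRCh38.p14).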

Additional observations from a re-analysis of the deposited data

How the results depend on the processing

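None of the 44 genes passed between constructs under any alternative tried for them. Of 835 alternative values over 47 results, 820 counted as unchanged. A gene counted so if it kept its sign and side of the threshold, and a count if it stayed within 1.5 times. A median of the 44 genes counted so if it moved by less than 0.0513. That limit is the SD within groups of each array's median over the 44 genes, taken as deviations from the gene means. It is larger in size than every one of these medians in the main fit. Such a median may still turn sign, and that of Del52 against WT (0.0052) lay below 0 in 6 of 19 alternatives, that of Del52 against Ins5 in 1. The 820 also include counts of 0 that stayed 0. Single genes were less stable. Leaving out 1 array turned the sign in 24 of the 44 genes for Del52 against WT and 21 for Ins5 against WT. It did so in 24 for Del52 against Ins5 and 25 for the mean of both mutants against WT. With the array axis as a covariate, limma called 4 genes in Del52 against WT, 7 in Ins5 against WT, 68 in the mean of both mutants against WT and 2 in the F test, against 0 in each without it. In Del52 against WT, Ins5 against WT and the mean of both against WT, 6, 7 and 9 of the 44 genes then had an unadjusted p under 0.05 (19.3%, 19.0% and 20.2% of all genes), and with gene-by-gene array weights 13, 17 and 16 (18.6%, 18.6% and 20.6%). Those weights were highest for WT replicate 1 (3.56) and Ins5 replicate 1 (2.02), and lowest for WT replicate 2 (0.38) and WT replicate 3 (0.47). Their part in these counts was not tested. Leaving out 1 array at a time moved the median of the 44 genes between -0.0596 and 0.015 in Del52 against WT, between -0.0978 and -0.0262 in Ins5 against WT, between -0.0335 and 0.043 in Del52 against Ins5, and between -0.0722 and -0.0096 in the mean of both mutants against WT, the lowest values coming without WT replicate 2 or, in Del52 against Ins5, without Ins5 replicate 1. PLK1 in Del52 against Ins5 turned to 0.0743 (adjusted p = 0.92) on its second probe set. On the array axis 5654 genes passed, 3612 within groups and 799 without WT replicates 2 and 3, and of the 44 genes 15, 10 and 4 did, with CENPA (0.97, adjusted p = 0.0538), CDK1 (-0.93, 0.0660) and CCNA2 (-0.96, 0.0643) past the threshold no longer. Both alternatives use the axis scores computed from all 9 arrays and allow fewer permutations, and the cause was not tested.

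With the replicate number as a block, 0 genes passed in each comparison, and it changed no call. Same-numbered samples had correlated deviations of 0.64 and 0.57 between Del52 and Ins5 for numbers 2 and 3 but -0.56 for number 1, and -0.92 to -0.33 with WT, so the numbers were not taken as pairs. Array weights by REML stopped before converging and are not used, and weights estimated gene by gene, chosen after seeing the data, called 0 genes. As to signal over background, 5 of the 44 genes lay within the span of the antigenomic controls, and the typical standard error was 0.11.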
